A study of Zea mays with 24 samples.

Results

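The adaxial epidermis of the pre-sheath of the maize leaf (Zea mays, inbred line B73, wild type) was set against pre-sheath tissue taken through all of its cell layers. They are 6 of the 24 libraries of the series, picked by their labels: 3 of sheath adaxial L1 (replicates 1 to 3) and 3 of sheath through all cell layers, called whole pre-sheath here (replicates 3 to 5). L1 is the outermost cell layer, which forms the epidermis, and adaxial is the upper side of the leaf, which faces the shoot. Both groups came from leaf primordia at plastochron 7 (P7), the stage of the seventh youngest leaf, cut by laser microdissection 50 µm below the preligule band, the strip from which the ligule grows out between blade and sheath. Each library pooled 5 to 6 plants, raised on a day of 15 h at 25 °C and a night of 9 h at 20 °C. The RNA was amplified in 2 rounds before paired-end sequencing. The 12 P7 libraries of the pre-blade and of the ligule band, again 3 of adaxial L1 and 3 of all layers each, were used to estimate the spread and to compare layer differences.

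A whole piece contains the adaxial L1 as well as the inner tissue and the abaxial (lower) epidermis. A transcript made in the adaxial L1 alone is therefore diluted in the whole piece, while one made in other layers only can be at 0 in the L1. The epidermis of a leaf secretes the cuticle, and in maize and other plants its identity depends on class IV homeodomain leucine zipper (HD-ZIP IV) genes, named ocl in maize. The inner tissue gives rise to mesophyll, bundle sheath and veins, where photosynthesis, sugar transport and most lignified walls are found. The 3 L1 and the 3 whole libraries belong to sets with different replicate numbers, and layer and library set cannot be told apart. Calls were therefore kept to large differences: an adjusted p below 0.05 and a change of at least 4-fold, that is 2 on the log2 scale. Fewer cells of a type and less RNA per cell cannot be told apart in such pieces.

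Total counts were 6240130, 18104500 and 11293300 in sheath L1 replicates 1 to 3, against 16328200, 17266500 and 9970950 in whole replicates 3 to 5, and 20294 to 21635 genes had a count in an L1 library against 25959 to 27058 in a whole library. Levels are given in replicate order as CPM, counts scaled to the normalised library size. Pearson correlations of log2(CPM + 1) across genes were 0.924 to 0.939 among L1 libraries, 0.946 to 0.98 among whole libraries and 0.886 to 0.911 between the groups. Whole replicate 4 stood apart, at 0.946 and 0.949 with the other whole libraries, which reached 0.98 with each other. The labels name pools of plants but not whether they were separate harvests, so p-values measure the spread between these samples.

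Of 22334 genes tested, 227 were called higher in the sheath L1 (1.02%) and 1497 lower (6.7%). The median log2 difference over all genes tested was -0.09, and 6017 genes had an unadjusted p below 0.05. The called lower genes had a median of -4.08 with bounds used for genes without counts, against 2.41 for the called higher genes. No count in any L1 library was found for 811 of the lower genes, and 1 to 3 counts over the 3 libraries for 191 more. A count of 0 over the 3 L1 libraries allows a level of up to 0.0898 CPM (3 counts), and folds of such genes are lower bounds against that level, covering counting error only. The higher genes were the more abundant ones, with a median L1 level of 33.3 CPM, whereas the lower genes had a median of 3.05 CPM in whole pre-sheath. Among all genes tested, 11.2% had L1 values above every whole value and 19.8% below every whole value. This held for 221 of the 227 higher and 1458 of the 1497 lower genes. Those genes were called on the same libraries, so the lack of overlap follows largely from the call. Without whole replicate 4 the count of higher genes was 149, of which 138 were among the 227.

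**Figure D1:**
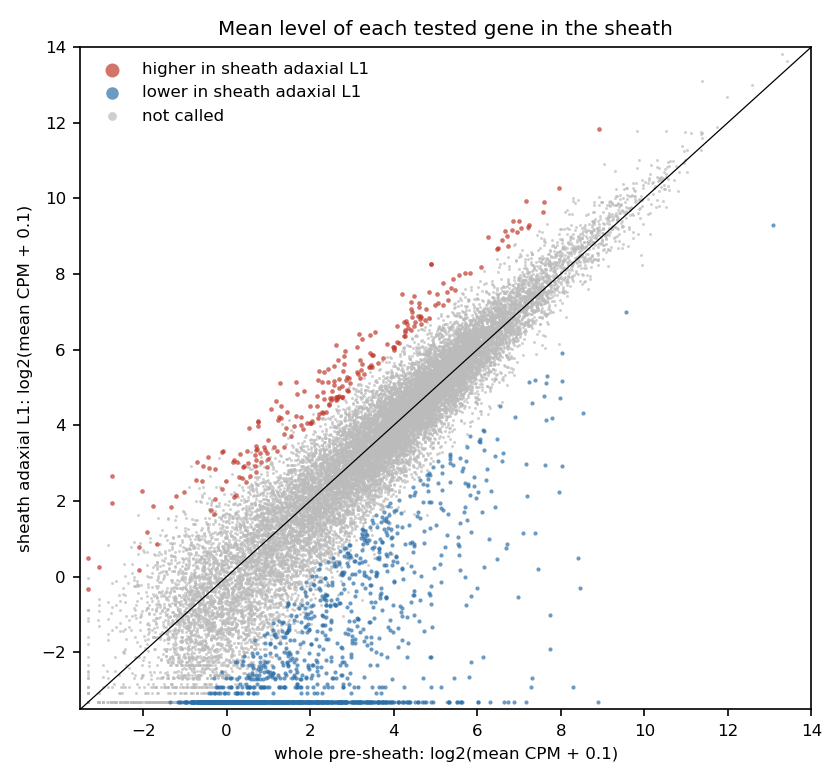
Mean level of each of the 22334 tested genes in sheath adaxial L1 (vertical axis) and in whole pre-sheath (horizontal axis), both as log2(mean CPM + 0.1), with 1 point per gene and the line of equal levels. The 227 genes called higher lie above the line, with a median log2 difference of 2.41, while the 1497 called lower spread down to the row of genes without a count in the L1.

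The labelled cell layer was checked first against HD-ZIP IV genes, which mark the epidermis. All 7 tested members had L1 values above every whole value, as had 11.2% of all genes tested. At an adjusted p below 0.05, 6 of the 7 were higher (4.55% of all genes tested), 2 of them by at least 4-fold (1.02% of all genes), and the median was 1.67 against -0.09 over all genes. The gene ocl4 (GRMZM2G123140), which in maize is known to act in trichome and anther epidermis, had 353.3, 562.4 and 910.9 CPM in sheath L1, against 131.6, 193.4 and 121.6 CPM in whole pre-sheath. The groups did not overlap, and the log2 difference was 2.03 (SE 0.32, adjusted p = 0.000207). HDZIV6_OCL6 (GRMZM2G001289) had 357.6, 510.6 and 337.7 CPM in sheath L1, against 88.8, 62.8 and 113.8 CPM in whole pre-sheath, a log2 difference of 2.18 (SE 0.33, adjusted p = 0.000161). Both estimates lay close to the limit: that of ocl4 was 1.62 to 1.94 without L1 replicate 3, whole replicate 3 or whole replicate 5, and that of HDZIV6_OCL6 was 1.96 without L1 replicate 2 and 1.98 without whole replicate 4. In each of these fits the adjusted p stayed below 0.05.

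The other listed members were less than 4-fold higher. The log2 difference was 1.90 for ocl5 (SE 0.23, adjusted p = 1.45e-05), 1.57 for ocl3 (adjusted p = 0.000382), 1.52 for HDZIV8_OCL8 (adjusted p = 0.000833) and 1.43 for ocl1 (adjusted p = 0.000155). HDZIV14_OCL14, with 5.16, 4.82 and 15.99 CPM in sheath L1 against 2.66, 3.14 and 2.34 CPM in whole pre-sheath, had an adjusted p of 0.0507. Per length, as mean FPKM (fragments scaled to transcript length and depth) with SD over 3 libraries, ocl4 stood at 165.7 ± 71.4 in the L1, HDZIV6_OCL6 at 153.5 ± 38.3, ocl1 at 148.2 ± 13.1 and ocl5 at 141.4 ± 25.9. These neighbours differed by less than their spread. They were followed by ocl3 at 97.5 ± 14.8, HDZIV8_OCL8 at 54.6 ± 8.46 and HDZIV14_OCL14 at 3.08 ± 2.16 FPKM.

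Cuticle and wax genes were mixed. Of 10 members, 7 were tested, 1 was called higher (1.02% of all genes tested) and none lower, and the median was 1.2. The genes gl1 and EREB46 and a second gene named CER1 had no count in either sheath group. The called gene was EREB55 (GRMZM2G160730, also named gl15), an AP2-type factor known to promote juvenile epidermal traits of maize leaves. It had 494.9, 735.9 and 668.0 CPM in sheath L1, against 205.3, 80.1 and 171.2 CPM in whole pre-sheath (log2 difference 2.06, SE 0.39, adjusted p = 0.00124). Its estimate was 1.92 without L1 replicate 2 and 1.74 without whole replicate 4. CER1, related to enzymes of alkane synthesis for wax, had 83.7, 114.1 and 102.9 CPM in sheath L1, against 20.1, 31.4 and 35.9 CPM in whole pre-sheath, and its log2 difference of 1.78 (adjusted p = 0.00428) lay below the 4-fold limit. AD1 (adherent1), needed to keep maize epidermal surfaces from fusing, was at 83.2, 95.5 and 80.4 CPM in sheath L1, against 31.0, 19.9 and 38.4 CPM in whole pre-sheath, also without overlap (log2 difference 1.54, adjusted p = 0.001). The fatty acid elongation genes fae1, gl4a and gl8b overlapped between the groups, with log2 differences of 0.38, 0.27 and -0.25 and adjusted p of 0.468, 0.769 and 0.671. The gene glossy2 had 17 counts over the L1 libraries, against 10 over the whole libraries.

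Among 3 lipid transfer genes, whose products carry lipids through the cell wall, all had L1 values above every whole value (11.2% of all genes tested). LTP3 was one of the most abundant transcripts, at 8779, 7239 and 10503 CPM in sheath L1, against 2501, 3198 and 2299 CPM in whole pre-sheath (log2 difference 1.73, SE 0.23, adjusted p = 4.06e-05). The gene plt1 was called higher, at 267.5, 444.4 and 159.7 CPM in sheath L1, against 114.8, 32.6 and 55.1 CPM in whole pre-sheath, but its adjusted p was 0.060 without L1 replicate 2 and 0.050 without whole replicate 4, and its log2 difference was 1.98 without whole replicate 5. Of 8 tested genes for epidermal patterning and division none was called (1.02% of all genes tested higher and 6.7% lower). Closest was pan1, which polarises the cells that flank maize stomata, with 84.9, 88.3 and 135.1 CPM in sheath L1 against 38.9, 50.2 and 49.0 CPM in whole pre-sheath (log2 difference 1.16, adjusted p = 0.00961).

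**Figure D2:**
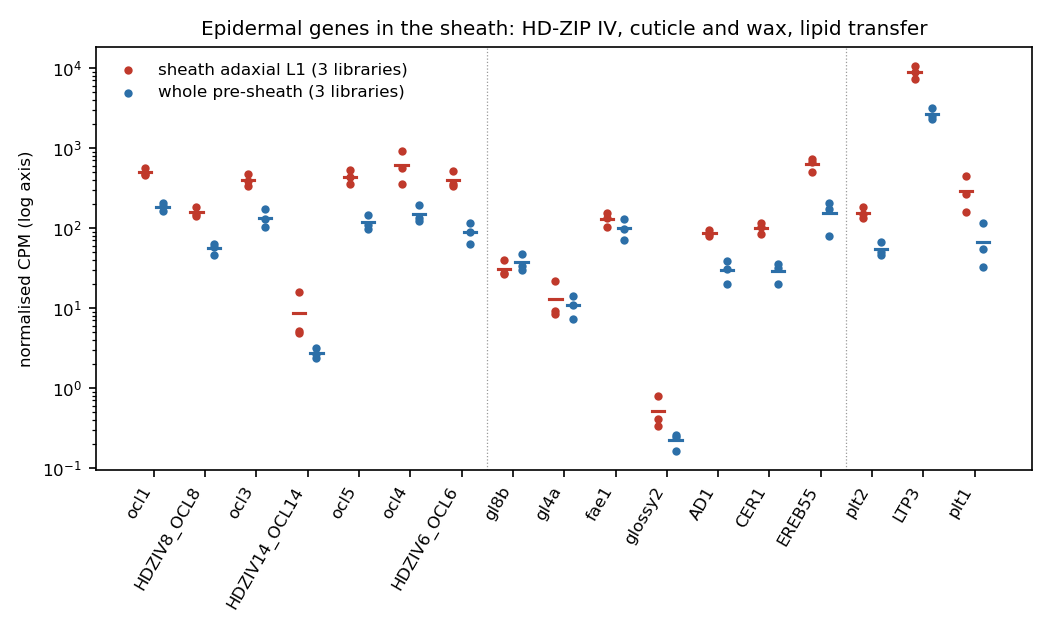
Normalised CPM on a log axis of the 17 tested HD-ZIP IV, cuticle and wax, and lipid transfer genes, with sheath adaxial L1 on the left of each pair and whole pre-sheath on the right; points are the 3 libraries of a group and bars their means. The 7 HD-ZIP IV genes and the 3 lipid transfer genes have no overlap between groups, while fae1, gl4a and gl8b do.

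Genes of leaf polarity went in both directions. AS2 (GRMZM2G118250, also named IG1), a LOB-domain factor whose Arabidopsis counterpart promotes adaxial fate, had 189.4, 363.3 and 369.8 CPM in sheath L1, against 25.7, 34.7 and 27.8 CPM in whole pre-sheath. The groups did not overlap, and the log2 difference was 3.39 (SE 0.44, adjusted p = 3.1e-05). Its relative ial1 had 31.8, 69.1 and 46.4 CPM in sheath L1, against 6.66, 5.79 and 8.22 CPM in whole pre-sheath (log2 difference 2.84, SE 0.51, adjusted p = 0.000882). Both were the only called members among 11 tested genes of the ligule and boundary list (1.02% of all genes tested were higher). The median of that list was 1.07 with bounds. Of the HD-ZIP III list, which holds adaxial factors and lbl1, rld2 was higher at 364.6, 301.0 and 423.7 CPM in sheath L1, against 150.8, 144.4 and 141.5 CPM in whole pre-sheath (log2 difference 1.32, adjusted p = 0.000298), short of 4-fold. For HB133 and lbl1 the adjusted p were 0.375 and 0.532.

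In the opposite direction, 8 of 10 tested YABBY and KANADI genes were called lower (6.7% of all genes tested). KANADI genes are known from Arabidopsis to specify the abaxial side, and YABBY genes act in lamina growth and polarity. The list's median was -7.60 as fitted and -4.86 with bounds, against -0.09 over all genes. YAB5 had no count in sheath L1, against 22.1, 7.82 and 24.9 CPM in whole pre-sheath, and was at least 191.7-fold lower. The gene yab10 likewise had no count in sheath L1, against 8.95, 5.68 and 5.97 CPM in whole pre-sheath. YAB6 had 0.166, 0 and 0 CPM in sheath L1, which is 1 count, against 45.9, 31.8 and 51.8 CPM in whole pre-sheath. Its pooled ratio of whole to L1 was 1399 with a 95% counting interval of 250.8 to 55283. The KANADI genes kan1 and kan3 had no L1 count either and were low in whole pre-sheath, at 0.787, 2.75 and 1.04 CPM for kan1 and 1.69, 1.32 and 1.12 CPM for kan3. Of the remaining called members, yab14 had 1.5, 0 and 0 CPM in sheath L1 against 56.1, 35.2 and 68.6 CPM in whole pre-sheath, YAB3 0, 0 and 0.687 CPM against 12.6, 5.9 and 14.1 CPM, and YAB11 1.83, 0 and 1.57 CPM against 25.5, 7.99 and 13.1 CPM.

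The 2 members that were not called differ from the rest. The gene yabby15 was abundant in both groups, at 465.5, 438.9 and 334.7 CPM in sheath L1, against 939.2, 337.8 and 702.6 CPM in whole pre-sheath, which overlapped (log2 difference -0.68, adjusted p = 0.205). The KANADI gene mwp1 (milkweed pod1), known from maize to be expressed on the abaxial side, had 20.5, 0 and 0 CPM in sheath L1, against 18.2, 18.9 and 16.7 CPM in whole pre-sheath. L1 replicate 1 lay above the whole libraries, and the other L1 libraries had none (adjusted p = 0.61).

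Further genes were higher in the L1 outside these lists. The bHLH factor bHLH165 had 30.1, 28.8 and 50.8 CPM in sheath L1, against 5.51, 4.41 and 3.46 CPM in whole pre-sheath (log2 difference 3.03, SE 0.39, adjusted p = 3.06e-05). NIP1-1, a NOD26-like channel of the aquaporin family, had 207.9, 259.7 and 319.5 CPM in sheath L1, against 54.8, 58.5 and 57.4 CPM in whole pre-sheath, the difference with the smallest adjusted p of the named higher genes (4.9e-06, log2 difference 2.20). It was the 1 aquaporin of 16 tested that was called higher, and NIP3-1 was the 1 called lower (1.02% and 6.7% of all genes tested). NIP3-1 had no L1 count. BURP10, a BURP-domain protein gene, was at 165.1, 208.7 and 174.9 CPM in sheath L1, against 45.6, 20.2 and 49.6 CPM in whole pre-sheath. Without whole replicate 4, which held the lowest value, its log2 difference was 1.93 in place of 2.25.

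Enzymes of glutamine synthesis divided between the layers. GLN6 had 370.2, 482.4 and 438.9 CPM in sheath L1, against 100.4, 111.8 and 107.3 CPM in whole pre-sheath (log2 difference 2.02, SE 0.26, adjusted p = 3.1e-05), and its estimate was just below 2 without L1 replicate 2, L1 replicate 3 or whole replicate 3. Gln1-4 had 171.3, 212.6 and 188.0 CPM in sheath L1, against 76.2, 13.6 and 41.7 CPM in whole pre-sheath, with an adjusted p of 0.055 to 0.068 when L1 replicate 2, whole replicate 4 or whole replicate 5 was left out. By contrast gln1-3 had 0, 1.69 and 1.08 CPM in sheath L1, against 32.7, 14.2 and 27.9 CPM in whole pre-sheath (log2 difference -4.59, adjusted p = 0.00045). The gene gln2 had 2 counts over the L1 libraries, against 1.51, 1.21 and 1.47 CPM in whole pre-sheath, a ratio of whole to L1 of 23.1 (95% counting interval 6.15 to 195.0). Glutamine synthetase copies are alike in sequence, so reads may have been shared among them. Of the 13 tested genes of nitrogen and amino acid metabolism 2 were higher and 5 lower (1.02% and 6.7% of all genes tested), with a median of -1.43, and 3 of these 7 calls were lost when 1 library was left out.

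The cell wall invertase gene incw1, whose product splits sucrose outside the cell, had 0.999, 3.2 and 14.5 CPM in sheath L1, against 0.0605, 0 and 0.0865 CPM in whole pre-sheath, which is 2 counts. The L1 libraries differed widely among themselves, and all lay above the whole ones (adjusted p = 4.58e-05). The pooled ratio of L1 to whole was 144.6 (95% counting interval 39.5 to 1202). A second invertase gene, Incw, went the other way, with 0, 0.232 and 0.294 CPM in sheath L1, against 12.3, 2.98 and 4.41 CPM in whole pre-sheath (log2 difference -5.02, adjusted p = 0.000948). Of the 24 cell cycle genes only the D-type cyclin cycD4 was called higher and none lower (1.02% and 6.7% of all genes tested). It had 38.1, 39.8 and 60.3 CPM in sheath L1, against 8.29, 14.3 and 10.4 CPM in whole pre-sheath. Its estimate of 2.07 was 1.82 without L1 replicate 3 and 1.89 without whole replicate 3. The lipoxygenase gene lox3 had 7.16, 5.81 and 15.6 CPM in sheath L1, against 1.82, 1.16 and 1.99 CPM in whole pre-sheath (log2 difference 2.53, 1.96 without L1 replicate 3). Its relatives lox10 and lox6 fell. The gene lox6 had 0, 0.116 and 0.785 CPM in sheath L1, against 14.3, 14.6 and 14.5 CPM in whole pre-sheath (adjusted p = 0.000356), and lox10 had 3 counts over the L1 libraries, against 3.27, 12.4 and 7.44 CPM in whole pre-sheath, a ratio of whole to L1 of 87.9 (95% counting interval 29.8 to 428.3). MYB-IF35 had 57.6, 27.4 and 55.4 CPM in sheath L1, against 13.6, 6.997 and 11.7 CPM in whole pre-sheath, with an estimate of 2.12 that was 1.87 to 1.97 when L1 replicate 1, L1 replicate 3 or whole replicate 4 was left out.

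Genes of the photosynthetic light reactions were lower in the L1. Of 19 listed genes 14 were tested, and 11 of the 14 were called lower (6.7% of all genes tested) and none higher. The median log2 difference was -5.14 as fitted and -4.70 with bounds. The chlorophyll-binding antenna gene cp29 was the most abundant of those called, at 16.1, 3.72 and 3.33 CPM in sheath L1, against 112.2, 138.2 and 178.9 CPM in whole pre-sheath (log2 difference -4.28, SE 0.64, adjusted p = 0.000167). The antenna genes cab-m9, CP24, CP22 and lhcb4 had no count in any L1 library, and the call of lhcb4 was lost, at adjusted p of 0.0542 to 0.0893, in 5 of the 6 fits with 1 library left out. For cab-m9, with 5.93, 6.67 and 11.6 CPM in whole pre-sheath, this made the L1 at least 85.0-fold lower. The photosystem I subunit gene psaH had 1 count over the L1 libraries, against 11.3, 12.3 and 14.7 CPM in whole pre-sheath, a ratio of whole to L1 of 419.8 (95% counting interval 75.1 to 16610.4). Another subunit gene, psaN, had 0, 1.74 and 0.0981 CPM in sheath L1, against 16.6, 25.2 and 24.8 CPM in whole pre-sheath (adjusted p = 0.000255). The 3 genes that were not called were cab-m1, L-FNRI and fnr1, the last 2 for ferredoxin-NADP reductase. Their relative L-FNRII was called lower. It lost the call, at adjusted p of 0.051 to 0.0991, in 4 of the 6 fits with 1 library left out. The gene fnr1 had 103.0, 130.6 and 138.1 CPM in sheath L1, against 131.2, 122.5 and 78.9 CPM in whole pre-sheath (adjusted p = 0.756). Summed over the 14 genes, the level was 137 to 149 CPM in the L1 libraries, most of it fnr1, against 361 to 396 CPM in the whole libraries.

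Carbon fixation and chlorophyll synthesis were affected in part. Of 15 tested genes of carbon fixation and the C4 cycle, 5 were lower (6.7% of all genes tested), and the median of all 15 was -0.69. The small subunit of Rubisco, rbcS, had 3.83, 0 and 2.35 CPM in sheath L1, against 41.6, 38.6 and 36.1 CPM in whole pre-sheath (log2 difference -4.34, adjusted p = 0.00198). The malate dehydrogenase gene mdh6 had 0, 0.814 and 0.294 CPM in sheath L1, against 5.26, 13.9 and 6.83 CPM in whole pre-sheath (log2 difference -4.33, adjusted p = 0.00101), and pck2 had no L1 count, against 16.2, 1.38 and 9.00 CPM. C4ppdkZm1, the pyruvate phosphate dikinase of the C4 cycle, had 0 counts over the L1 and 2 over the whole libraries. Of 16 tested chlorophyll and plastid genes 4 were lower (6.7% of all genes tested), and 2 of these calls were lost when 1 library was left out. The protochlorophyllide reductase gene por had 22.5, 22.1 and 11.4 CPM in sheath L1, against 153.0, 95.3 and 111.2 CPM in whole pre-sheath (log2 difference -2.69, SE 0.48, adjusted p = 0.000786), and ChlI, a subunit of the magnesium chelatase, 11.2, 7.15 and 5.39 CPM against 30.7, 53.4 and 36.8 CPM (log2 difference -2.37, adjusted p = 0.000626).

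**Figure D3:**
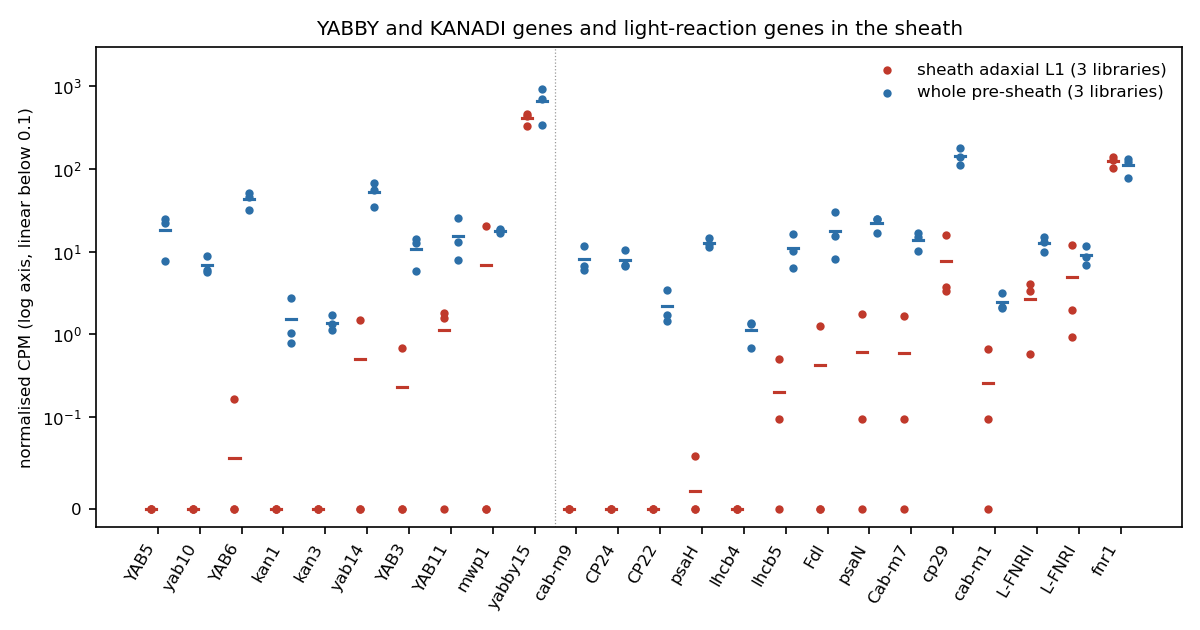
Normalised CPM of the 10 tested YABBY and KANADI genes (left of the dotted line) and the 14 tested light-reaction genes (right), with sheath adaxial L1 left of whole pre-sheath in each pair, on an axis that is logarithmic above 0.1 and linear below. Points are libraries and bars are means of 3; 8 genes of the first group and 11 of the second were called lower, and yabby15 and fnr1 are abundant in both.

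Some lignin and secondary wall genes had no RNA detected in the L1, while others overlapped between the groups. BM1 (brown midrib1), the cinnamyl alcohol dehydrogenase of maize lignin synthesis, had no L1 count, against 160.8, 25.2 and 131.7 CPM in whole pre-sheath, and was at least 1117-fold lower. The gene 4CL (4-coumarate CoA ligase) had no L1 count either, against 43.0, 3.25 and 46.1 CPM (at least 313.6-fold lower). CCOAOMT2, a methyltransferase of the same pathway, had 3.83, 0.872 and 6.87 CPM in sheath L1, against 31.8, 13.2 and 40.5 CPM in whole pre-sheath (log2 difference -2.91, adjusted p = 0.0302), and its adjusted p was 0.0599 to 0.103 without L1 replicate 1, L1 replicate 2, whole replicate 3 or whole replicate 5. These 3 of 7 tested genes were lower and 1 was higher (6.7% and 1.02% of all genes tested), and the median was -1.02. The 1 higher gene, cad1, had 2.33, 7.26 and 14.7 CPM in sheath L1, against 0.484, 0.716 and 0.346 CPM in whole pre-sheath, and its adjusted p was 0.057 without whole replicate 5. PAL1, at the entry of phenylpropanoid synthesis, overlapped between the groups (adjusted p = 0.92), with 240.4, 307.6 and 390.0 CPM in sheath L1 and 481.1, 124.2 and 401.3 CPM in whole pre-sheath. CesA12, a cellulose synthase subunit of secondary walls, had no L1 count, against 8.11, 13.9 and 14.7 CPM in whole pre-sheath, while none of 9 tested primary wall genes was called. BM1, 4CL and CCOAOMT2 were lowest among the whole libraries in replicate 4. The 7 tested lignin genes summed to 264 to 433 CPM in the L1 libraries, against 748, 209 and 658 CPM in whole replicates 3 to 5. The part of that library in these calls was not tested beyond leaving it out, which ended none of the calls of BM1, 4CL, CCOAOMT2 and CesA12.

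Of the genes linked to veins, ATPP2-B1 and sut1 were low, whereas SCR was abundant in both groups. The phloem gene ATPP2-B1 had no L1 count, against 9.14, 0.716 and 3.46 CPM in whole pre-sheath, and was called lower. The sucrose carrier gene sut1 was not tested, with 0 counts over the L1 and 10 over the whole libraries. Of 7 tested genes of vascular and radial patterning, IDDveg9 (also named Nkd1) had 19.6, 13.3 and 4.12 CPM in sheath L1, against 32.1, 115.8 and 51.8 CPM in whole pre-sheath, and scl23, a relative of SCARECROW, 0.666, 0.988 and 1.28 CPM against 4.48, 7.71 and 7.87 CPM. Both calls (6.7% of all genes tested were lower) were lost, at adjusted p of 0.055 to 0.13, when 1 of several libraries was left out. SCR itself was abundant in both groups, at 280.7, 334.2 and 341.8 CPM in sheath L1 and 213.7, 334.1 and 309.0 CPM in whole pre-sheath (log2 difference 0.16, adjusted p = 0.768).

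Auxin genes had as many called members as the light reactions, out of more genes. Of 44 tested, 11 were lower and none higher (6.7% and 1.02% of all genes tested), with a median of -0.79. IAA12, of the Aux/IAA repressors, had no L1 count, against 95.8, 52.5 and 87.8 CPM in whole pre-sheath, and was at least 855.3-fold lower. AUX35 had no L1 count, against 50.2, 6.61 and 21.9 CPM in whole pre-sheath (at least 289.5-fold lower). The auxin response factor genes ARF12 and ARF4 fell. ARF12 had 3.5, 2.32 and 3.73 CPM in sheath L1, against 42.2, 70.6 and 39.9 CPM in whole pre-sheath (log2 difference -4.02, SE 0.42, adjusted p = 3.55e-06), and ARF4 had 2 counts over the L1 libraries, against 13.5, 19.7 and 13.1 CPM in whole pre-sheath, a ratio of whole to L1 of 264.8 (95% counting interval 73.1 to 2191). The efflux carrier gene PIN1a had 2.66, 7.26 and 3.83 CPM in sheath L1, against 97.7, 32.9 and 62.5 CPM in whole pre-sheath (log2 difference -3.76, SE 0.48, adjusted p = 2.84e-05). AUX1 had 0, 0.116 and 0.687 CPM in sheath L1, against 41.1, 2.81 and 35.4 CPM in whole pre-sheath, where replicate 4 lay far below the others (adjusted p = 0.000559). The gene aic1 had 0, 3.72 and 2.65 CPM in sheath L1, against 199.5, 110.4 and 188.0 CPM in whole pre-sheath (log2 difference -6.13, adjusted p = 0.000665). Not all auxin factors were low in the L1: ARF17 had 55.4, 46.7 and 74.2 CPM in sheath L1, against 35.4, 32.8 and 33.4 CPM in whole pre-sheath (log2 difference 0.79, adjusted p = 0.0425), below the 4-fold limit.

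Of 26 tested cytokinin genes 5 were lower and none higher (6.7% and 1.02% of all genes tested), with a median of -0.97 as fitted and -0.94 with bounds. Of the 5 calls, 4 were lost when 1 library was left out, and that of RR6 was not. The response regulator gene RR6 had 1.66, 1.39 and 1.37 CPM in sheath L1, against 26.6, 16.8 and 22.1 CPM in whole pre-sheath (log2 difference -3.89, SE 0.44, adjusted p = 8.54e-06). The response regulator gene crr2 had 6.83, 8.66 and 9.32 CPM in sheath L1, against 48.2, 20.2 and 31.7 CPM in whole pre-sheath, and its log2 difference of -2.01 was -1.91 without L1 replicate 1 and -1.66 without whole replicate 3. CKX6, an oxidase that degrades cytokinin, had 3 counts over the L1 libraries, against 3.87, 2.87 and 4.58 CPM in whole pre-sheath (ratio of whole to L1 40.7 (95% counting interval 13.7 to 199.4)), with an adjusted p of 0.060 without L1 replicate 2. The 26 genes summed to 195 to 219 CPM in the L1 libraries, against 347 to 390 CPM in the whole libraries. In the abscisic acid list 3 of 21 tested genes were lower (6.7% of all genes tested). All 3 lost the call when a library was left out, SnRK2.1 in all 6 such fits, vp14 in 3 and SnRK2.6 in 1. The kinase gene SnRK2.6 was at 3.16, 7.84 and 21.1 CPM in sheath L1, against 42.8, 63.0 and 55.5 CPM in whole pre-sheath (log2 difference -2.31, and -1.92 without L1 replicate 1).

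Several enzyme families of defence and redox reactions had genes at or near 0 in the L1. Glutathione transferases, which conjugate reactive compounds, had 6 of 17 tested members lower and none higher (6.7% and 1.02% of all genes tested), with a median of -2.13. Of the 6, 1 lost its call when a library was left out. The most abundant of the called members in whole pieces, gst12, had no L1 count, against 942.5, 100.3 and 389.1 CPM in whole pre-sheath, at least 5274-fold lower. The gene gst13 had none either, against 169.0, 75.7 and 111.3 CPM (at least 1314-fold lower), and gst11 had 5 L1 counts in 1 library, against 349.3, 98.5 and 196.4 CPM. Reads may have been shared among members of this family. Other members were abundant in both groups, such as gst1 with 1081, 1402 and 1335 CPM in sheath L1 and 1588, 1757 and 1197 CPM in whole pre-sheath (adjusted p = 0.61). The peroxidase gene PER1 had 3 counts over the L1 libraries, against 82.9, 35.4 and 47.7 CPM in whole pre-sheath (ratio of whole to L1 617.3 (95% counting interval 211.0 to 2995)), and the polyamine oxidase gene MPAO had none, against 27.1, 10.5 and 18.9 CPM (at least 206.7-fold lower). Of 10 tested genes of defence, among them those for the benzoxazinoids of grasses, 3 were lower (6.7% of all genes tested). The call of the third, PR10, was lost in 5 of 6 fits with 1 library left out, at adjusted p of 0.0533 to 0.098. BX5 had 0, 0.639 and 1.77 CPM in sheath L1, against 39.9, 34.9 and 29.8 CPM in whole pre-sheath (adjusted p = 0.00689), and BX4 8.32, 10.3 and 16.8 CPM against 64.6, 73.3 and 63.1 CPM (adjusted p = 0.00129). The zinc finger gene zfp30 had 0.333, 0.581 and 2.26 CPM in sheath L1, against 233.3, 110.3 and 179.8 CPM in whole pre-sheath (log2 difference -7.33, adjusted p = 0.00185). Myo-inositol phosphate synthase, the entry to inositol synthesis, was lower for both named genes, which are paralogs that may share reads. The gene mips2 had 6.66, 13.4 and 8.34 CPM in sheath L1, against 112.7, 98.9 and 81.6 CPM in whole pre-sheath (log2 difference -3.35, SE 0.32, adjusted p = 1.57e-06), and INO1 had 12.3, 3.37 and 7.26 CPM against 228.8, 175.6 and 183.8 CPM (log2 difference -4.73, SE 0.48, adjusted p = 2.26e-06).

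None of 34 cytosolic ribosomal protein genes, 10 histone genes, 12 tubulin genes or 20 heat shock genes was called. Of all genes tested, 1.02% were called higher and 6.7% lower, so short lists can lack a call. The median log2 differences of these lists were 0.09, 0.09, -0.32 and -0.09. Nor was any called of 6 KNOX genes and their repressors or of 21 SBP-box genes, whose medians were higher, at 0.74 and 0.47. At an adjusted p below 0.05 and any fold, 3 of the 21 SBP-box genes were higher (4.55% of all genes tested). The SBP-box gene sbp20 had 306.6, 285.5 and 348.3 CPM in sheath L1, against 102.7, 96.3 and 101.1 CPM in whole pre-sheath (log2 difference 1.65, adjusted p = 1.49e-05), and missed the limit on fold alone.

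**Figure D4:**
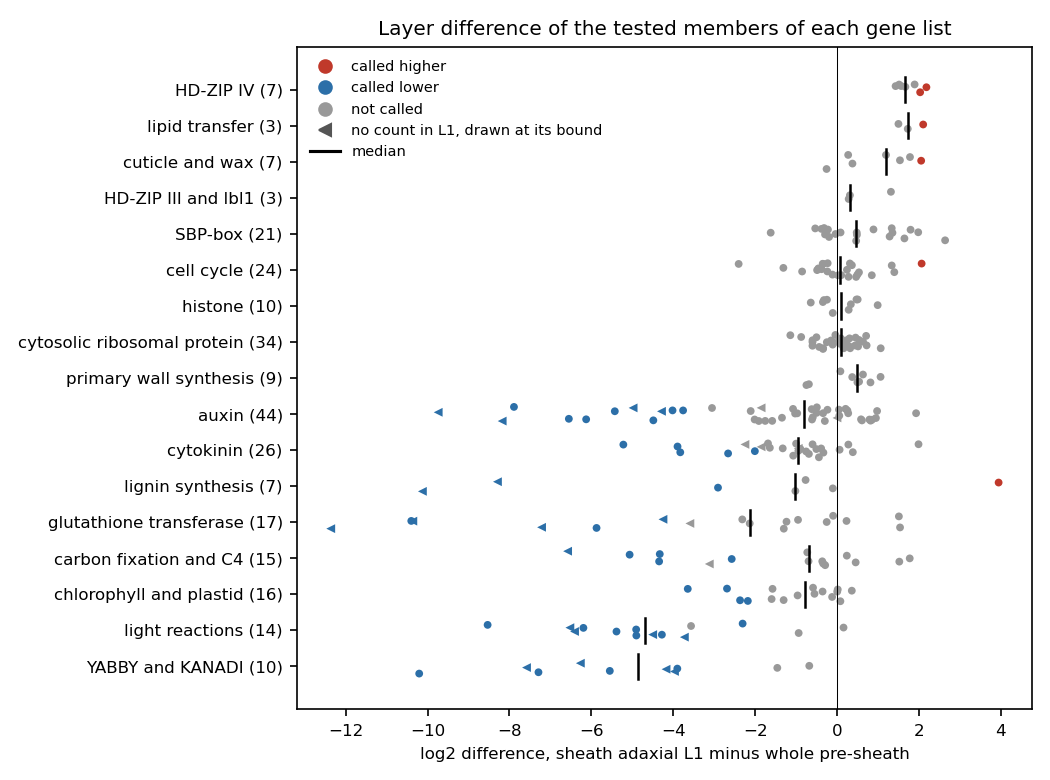
Log2 difference, sheath adaxial L1 minus whole pre-sheath, of the tested members of 17 gene lists (number tested in brackets), with 1 point per gene, the median as a bar, and genes without an L1 count drawn as triangles at their lower bound. HD-ZIP IV genes lie together near 1.67, ribosomal and histone genes around 0.09, and light-reaction and YABBY and KANADI genes at -4.70 and -4.86.

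The layer difference was then compared between regions, since the blade and ligule pieces carry the replicate numbers of the same 2 library sets. The blade layer difference called 188 genes higher and 960 lower (0.842% and 4.3% of genes tested), and that of the ligule 149 and 1937 (0.667% and 8.67%). Ligule L1 libraries had total counts of 3818650 to 21872500, with 18460 to 22904 genes detected. Whole ligule libraries had 19309600 to 51255600 and 28231 to 31175 genes. Blade L1 had 9237420 to 32554000 (20523 to 24929 genes) and whole blade 21722000 to 52731800 (27716 to 29204 genes). How far depth shaped the results of these regions was not tested. Of the 227 genes higher in the sheath L1, 97 were also called higher in the blade L1 (42.7% of the sheath list and 51.6% of the blade list of 188) and 58 in the ligule L1 (25.6% and 38.9% of 149). Of the 1497 lower genes, 704 were also lower in the blade (47.0% and 73.3% of 960) and 999 in the ligule (66.7% and 51.6% of 1937). Of the 811 lower genes without a sheath L1 count, 247 had no count in any of the 9 P7 L1 libraries. A test of the difference between the sheath and blade layer differences called 13 genes higher and 21 lower in the sheath (0.0582% and 0.094% of 22334), with 1614 at an unadjusted p below 0.05. Against the ligule it called 234 higher and 55 lower (1.05% and 0.246%). These counts depend on the method: against the blade DESeq2 called 56 and 138 and a test against 2-fold 5 and 4, and against the ligule they called 420 and 162, and 108 and 23. Leaving out 1 library gave 7 to 14 higher and 5 to 33 lower genes against the blade.

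Against the blade, 7 called genes had a name. PEAMT, a methyltransferase of phosphocholine synthesis, overlapped between the layers of the sheath, with 10.7, 11.8 and 17.1 CPM in L1 and 28.4, 10.2 and 7.7 CPM in whole pieces (log2 difference -0.23, adjusted p = 0.814), whereas the blade had 0.141, 0.4 and 0.676 CPM in L1 and 18.4, 15.9 and 17.2 CPM in whole pieces. The sheath minus the blade difference, on the log2 scale, was 5.27 (SE 0.78, adjusted p = 0.00718). INO1 showed the reverse. It fell in the sheath L1, as given above, while the blade had 40.0, 35.1 and 19.5 CPM in L1 and 45.5, 65.0 and 67.4 CPM in whole pieces, and the sheath minus the blade difference was -3.82 (SE 0.60, adjusted p = 0.00759). For mips2, with 67.4, 69.1 and 48.0 CPM in blade L1 and 81.8, 97.6 and 139.0 CPM in whole blade, the same quantity was -2.56 (adjusted p = 0.0108). The pyruvate decarboxylase gene PDC had 10.7, 3.89 and 7.06 CPM in sheath L1 and 47.8, 60.3 and 44.1 CPM in whole pre-sheath, against 21.1, 28.7 and 20.4 CPM in blade L1 and 31.2, 26.0 and 37.2 CPM in whole blade (difference -2.42, adjusted p = 0.036). ARF4, at 2 counts in the sheath L1, kept 13.7, 7.07 and 14.3 CPM in blade L1, against 45.4, 44.2 and 55.6 CPM in whole blade (adjusted p = 0.036), and psaH kept 0.776, 0.534 and 0.601 CPM in blade L1, against 3.32, 4.08 and 6.96 CPM in whole blade (adjusted p = 0.034). For incw1 the blade had 31.7, 22.8 and 24.5 CPM in L1 and 9.01, 8.64 and 11.3 CPM in whole pieces (adjusted p of the difference 0.0499). Of 16 alternative fits, these calls held in 5 for PDC, 4 for ARF4, 4 for psaH and 5 for incw1, so they rest on the settings.

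The depth of the ligule libraries, given above, was not tested as a factor in their comparison with the sheath. Against the ligule, most of the called genes had the higher layer difference in the sheath, and 2633 genes had an unadjusted p below 0.05. The smallest adjusted p of the named ones was that of dehydrin3, of a family that accumulates under water loss, with 390.0, 332.3 and 366.5 CPM in sheath L1 and 1512, 598.0 and 788.8 CPM in whole pre-sheath, against 5.56, 4.93 and 8.04 CPM in ligule L1 and 655.2, 1014 and 884.0 CPM in whole ligule. The sheath minus the ligule difference was 5.65 (SE 0.42, adjusted p = 1.96e-07). GLN6, higher in the sheath L1, had 10.5, 15.8 and 11.5 CPM in ligule L1 and 23.7, 29.4 and 18.9 CPM in whole ligule (difference 2.96, SE 0.37, adjusted p = 0.000341). The GRAS-domain gene GRAS19 had 77.7, 61.1 and 59.4 CPM in sheath L1 and 122.2, 110.7 and 99.9 CPM in whole pre-sheath, against 3.1, 2.59 and 8.42 CPM in ligule L1 and 72.8, 78.7 and 83.5 CPM in whole ligule (difference 3.21, adjusted p = 0.00145). BX4, pcr1 and mips2 were lower in the L1 of both regions and more so in the ligule, by 5.39, 4.71 and 3.79 (adjusted p of 0.000598, 0.00129 and 0.00184).

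PIN1a and RR6, genes of auxin transport and cytokinin response, went the other way. PIN1a, given above, had 76.9, 63.8 and 67.4 CPM in ligule L1 and 33.6, 67.7 and 111.4 CPM in whole ligule, which overlapped, and the sheath minus the ligule difference was -3.73 (SE 0.63, adjusted p = 0.0025). RR6 had 10.1, 27.2 and 27.3 CPM in ligule L1 and 32.5, 31.8 and 25.4 CPM in whole ligule, and the difference was -3.41 (SE 0.57, adjusted p = 0.00232). Also lower in the sheath were the ovate family gene OFP29, with 0, 0.0581 and 1.08 CPM in sheath L1 and 31.6, 5.34 and 22.5 CPM in whole pre-sheath, against 15.96, 10.6 and 20.9 CPM in ligule L1 and 28.7, 54.8 and 48.6 CPM in whole ligule (adjusted p = 0.0227). The gene cki1 had 1.17, 2.09 and 0.687 CPM in sheath L1 and 13.4, 7.16 and 15.7 CPM in whole pre-sheath, against 9.49, 36.3 and 24.2 CPM in ligule L1 and 22.4, 30.5 and 24.7 CPM in whole ligule (adjusted p = 0.029). PDC and INO1 also had a lower layer difference in the sheath than in the ligule, at -2.11 and -2.52 (adjusted p of 0.0232 and 0.0321). Of 16 alternative fits, the call held in 8 for OFP29, 6 for cki1, 11 for PDC and 7 for INO1.

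**Figure D5:**
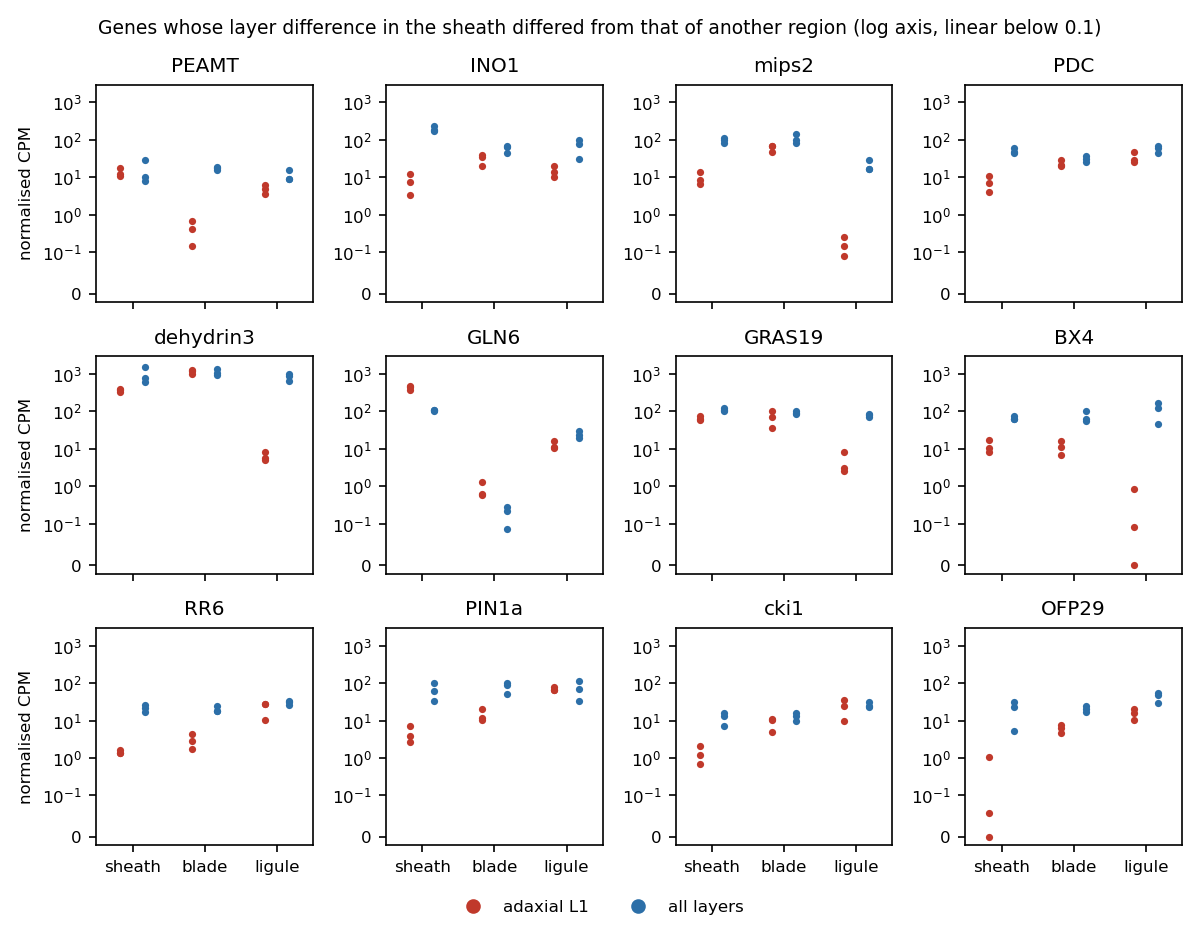
Normalised CPM of 12 genes whose layer difference in the sheath differed from that of the blade or the ligule, with adaxial L1 left of all layers in each region, 1 point per library and 3 libraries a group, on an axis that is logarithmic above 0.1 and linear below. RR6, PIN1a, cki1 and OFP29 are lower in the sheath L1 than in the ligule L1, and dehydrin3, GRAS19 and GLN6 are higher there.

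Within the L1 library set alone, where layer is constant, levels were compared across regions. The genes described above were chosen partly on these L1 values, so their levels are given as a description without a test. GLN6 averaged 430.5 ± 56.6 CPM in sheath L1, against 0.857 ± 0.414 CPM in blade L1 and 12.6 ± 2.82 CPM in ligule L1 (SD, n = 3 libraries each). EREB55 averaged 632.9 ± 124.3 CPM in sheath L1, against 126.3 ± 59.3 CPM in blade L1 and 304.4 ± 75.4 CPM in ligule L1. For ial1 the means were 49.1 ± 18.8, 10.3 ± 5.8 and 24.6 ± 13.1 CPM in the same order. AS2 averaged 307.5 ± 102.3 CPM in sheath L1 and 335.0 ± 219.7 CPM in blade L1, against 68.4 ± 6.03 CPM in ligule L1. For bHLH165 the sheath L1 lay between the other regions, with 36.6 ± 12.4 CPM. That gene averaged 8.22 ± 5.55 CPM in blade L1 and 229.0 ± 52.2 CPM in ligule L1.

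The HD-ZIP IV list was tested with all 7 of its members. Family members without a matched gene name were not covered, and the list was chosen with earlier results of these data known. None of the 7 genes was called between sheath L1 and blade L1 (1.42% of all genes tested higher and 1.6% lower) or between sheath L1 and ligule L1 (4.19% and 2.56%). At an adjusted p below 0.05 and any fold, 4 of the 7 were higher in sheath L1 than in ligule L1 (7.37% of all genes tested) and none than in blade L1 (2.23%). The log2 differences from ligule L1 were 1.89 for HDZIV6_OCL6 (edgeR adjusted p = 0.00058), 1.70 for ocl3 (adjusted p = 0.000163), 1.36 for ocl1 (adjusted p = 0.000237) and 1.25 for HDZIV8_OCL8 (adjusted p = 0.00402). Over all 7 they ranged from 0.26 to 1.89, and from -0.68 to 0.94 against blade L1.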

How the data were processed

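The following values were used. Expected counts per gene (0.274% to 0.601% of a library's values are not whole) and FPKM are the authors' own, in 1 deposited table each, per the file headers, with 109715 gene identifiers and 0 columns left unmapped. TopHat2 2.0.10 and Cuffdiff 2.1.1 appear, with no role, in the submitters' processing notes. Genome build, annotation and strandedness were not stated, so antisense genes, overlapping genes and near-identical copies are uncertain. Gene names were looked up in RefSeq's annotation of Zm-B73-REFERENCE-NAM-5.0: 18259 identifiers matched a single locus and 2513 had a gene name. No coordinates were taken from it.

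Counts were rounded and fitted with edgeR 4.0.16 in R 4.3.3 over 18 P7 libraries in 6 groups (TMM, filterByExpr with a smallest count of 10 and total of 15, robust quasi-likelihood test, Benjamini-Hochberg adjustment). Standard errors (SE) came from the F statistic: the size of the log2 fold change over the root of F. On simulated data of the layer comparison with 21960 genes, 61 of 100 genes changed 4-fold and 86 of 100 changed 16-fold passed the adjusted p, as did 12 unchanged genes. The changed genes were drawn from those above a minimum average level. The 4-fold limit of a call was not applied there, and genes changed 4-fold had a median estimated log2 change of 1.97 in size. Sheath replicates of a group differed by more than counting error (chi-square per degree of freedom 21.4 to 77.1). A count of 0 in 1 sheath library allows 0.166 to 0.481 CPM, for counting error only.

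Named genes were the 15 with the largest change per direction (name, call, no overlap, average log2 CPM of at least 3), up to 3 called per list by p, all tested HD-ZIP IV and cuticle genes, and up to 6 per direction from each comparison of regions. Other list members were named, after their values were seen, to show a list's range. The members and lists were chosen with earlier results of these data known. Alternatives were DESeq2 1.42.0, RLE factors, no count filter, limma-trend (limma 3.58.1) on log2(FPKM + 1) and log2(FPKM + 0.1) filtered to genes that reach an FPKM of 1 in 3 libraries or unfiltered, a test against 2-fold, each sheath library left out, a replicate block, all 24 libraries, and the 6 sheath libraries alone. Promoters were not analysed here. Figures used matplotlib 3.10.9 in Python 3.11.15.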

Additional observations from a re-analysis of the deposited data

Results flagged for a closer look

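The genes below had a layer difference in the sheath that differed from that of another region by a test of the difference itself (edgeR, adjusted over 22334 genes). Against the blade the values, on the log2 scale and as sheath difference minus blade difference, were 5.27 for PEAMT, 5.53 for incw1, -3.82 for INO1, -2.56 for mips2, -5.67 for psaH, -2.42 for PDC and -5.85 for ARF4. The sheath L1 held 1 count of psaH and 2 of ARF4, and whole pre-sheath held 2 of incw1, so these fitted values depend on the prior count of the fit. PEAMT and INO1 kept this call in all 16 alternatives and mips2 in 14, while psaH and ARF4 kept it in 4 each and incw1 and PDC in 5 each.

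Against the ligule the values were 5.65 for dehydrin3, 2.96 for GLN6, 5.39 for BX4, 4.71 for pcr1, 3.21 for GRAS19 and 3.79 for mips2. In the other direction they were -3.41 for RR6, -3.73 for PIN1a, -4.23 for OFP29, -2.11 for PDC, -2.97 for cki1 and -2.52 for INO1. Of these, dehydrin3, GLN6, BX4, GRAS19 and RR6 kept the call in all 16 alternatives, pcr1 and PIN1a in 15, mips2 in 12, PDC in 11, OFP29 in 8, INO1 in 7 and cki1 in 6. A gap test for single outlying samples was not run on groups of 3 libraries.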

How the results depend on the processing

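Over all alternatives, 188 counts stayed within 1.5 times their reported value and 46 did not; of the layer differences of named genes, 1470 kept direction and side of the threshold, 192 missed it, 3 newly passed it and 5 changed sign. For the layer comparison, limma-trend on log2(FPKM + 1) called 98 genes higher and 697 lower, and without a filter 97 and 666; the 6 sheath libraries alone gave 852 lower. Leaving out 1 library gave 149 to 251 higher and 1085 to 1386 lower genes, with the lowest higher count without whole replicate 4. Of 85 named genes called, 28 lost the call at least once, 18 by adjusted p and 10 by fold alone.

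Against the blade, counts of higher and lower genes were 56 and 138 with DESeq2, 79 and 244 without a count filter, 7 and 3 on log2(FPKM + 0.1), 5 and 4 in the test against 2-fold, and 33 and 86 with all 24 libraries; log2(FPKM + 1) without a filter gave 11 lower. Against the ligule they were 420 and 162 with DESeq2, 507 and 211 without a count filter, 117 and 32 on log2(FPKM + 1) without a filter, 108 and 23 in the test against 2-fold, and 369 and 135 with all 24 libraries. With 1 library left out they ranged from 7 to 14 and 5 to 33 against the blade, and from 140 to 263 and 32 to 88 against the ligule. For these comparisons the cause was not tested.

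HD-ZIP IV genes with a higher level numbered 3 in the test against 2-fold, and 6 to 7 with 1 library left out. Lower cytokinin genes numbered 2 on log2(FPKM + 1), with or without a filter, 3 with the 6 sheath libraries, and 3 to 5 with 1 library left out. The difference of gl4a, which was not called, changed sign to -0.015 on log2(FPKM + 1), with or without a filter, and to -0.023 on log2(FPKM + 0.1), and ranged from -0.32 to 0.51 with 1 library left out. That of PEAMT ranged from -0.55 to 0.55, the last without whole replicate 3; the cause was not tested.

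No paired analysis was possible because the sheath L1 and whole libraries share only the replicate number 3, and those libraries' deviations correlated at 0.0236 across genes. With set and number as a random replicate block in limma-voom, 236 genes were higher and 1683 lower, against 237 and 1679 without it, at a consensus correlation of -0.0527. The block gave 12 lower genes against the blade and 139 higher against the ligule, and voom without it 13 and 151. It joined libraries by number, and same-numbered all-layer libraries correlated with either sign, as given below. The counts with and without the block therefore cannot show whether a pairing affects the calls. Same-numbered L1 libraries of different regions correlated at -0.065 to 0.0504 in their deviations. These values cover all tested genes, including those with few counts, so they showed no pairing but cannot exclude it. All-layer libraries of blade and ligule with the same number correlated at 0.209 to 0.477, all 3 pairs above 0.1, while those of the sheath correlated with them at -0.536 to 0.276. With blade and ligule, the sheath values were -0.449 and -0.536 for number 3 and -0.304 and -0.436 for number 4. For number 5 they were 0.276 and 0.228. The numbers may thus pair the all-layer blade and ligule libraries. Only libraries with the same number were compared, so a pairing of sheath libraries under other numbers was not tested. Depth limits what a missing count shows: genes below the level that 0 counts allow were not detectable in the L1.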

Other observations

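Among genes without a name, the 2 most abundant ones called higher and lower without overlap were chosen after their values were seen. GRMZM2G033222 had 2933, 3894 and 4099 CPM in sheath L1, against 648.5, 328.2 and 466.9 CPM in whole pre-sheath (log2 difference 2.92, edgeR adjusted p = 1.57e-06). GRMZM2G066598 had 1116, 1128 and 1497 CPM in sheath L1, against 314.9, 203.3 and 223.2 CPM in whole pre-sheath (adjusted p = 4.9e-06). In the other direction, GRMZM2G433844 had 607.8, 575.6 and 718.1 CPM in sheath L1, against 5933, 13947 and 6262 CPM in whole pre-sheath (log2 difference -3.78, adjusted p = 0.000155), and it averaged 61 CPM in ligule L1, against 7994 CPM in whole ligule. GRMZM5G851266 had 201.4, 81.1 and 96.6 CPM in sheath L1, against 357.5, 1207 and 693.4 CPM in whole pre-sheath (adjusted p = 0.0136). Of the 1497 lower genes, whole replicate 4 held the lowest of the 3 whole values for 827, replicate 3 for 395 and replicate 5 for 275. That is 55.2% for replicate 4, which held the lowest value alone in 41% of all genes tested.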
